A study of Mus musculus with 4 samples.

Results

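The ID proteins and the E proteins are helix-loop-helix transcription regulators that bind each other, and the 7 genes described here encode all of both families, the ID genes Id1, Id2, Id3 and Id4 and the E protein genes Tcf3, Tcf4 and Tcf12. They were chosen by gene symbol, as transcript clusters that the platform's gene table pairs only with a member symbol. All 7 were found, each with 1 cluster, among 19938 genes measured by 21789 clusters with a single symbol. The set was drawn up because Id3 was already known to be lower in the Mbd4 KO arrays, so the difference of Id3 is given as a description. The other 6 members came in by family alone.

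RNA came from CH12.F3, a mouse B lymphoma line used to study antibody class switching, and 4 whole-transcript arrays were hybridised. Control cells gave 2 arrays and cells labelled Mbd4 KO gave 2 arrays. The Mbd4 protein recognises methylated CpG and, as a glycosylase, excises thymine or uracil that faces guanine. All cells grew with 6% fetal calf serum. Both groups had been exposed for 24 h to IL-4 at 5 ng/ml, TGF-beta at 0.2 ng/ml and CD40 ligand at 25% of the volume, so no array shows the genes before activation. The labels leave unsaid how the knockout was made, whether it is 1 clone, and whether replicate arrays stand for separate cultures. A p-value here therefore covers no more than array-to-array spread, possibly technical, and loss of Mbd4 cannot be told apart from another difference between these cells.

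E proteins bind DNA at E-box sites as dimers, and in B cells they drive lineage genes, immunoglobulin gene rearrangement and, after activation, class switching. ID proteins have the helix-loop-helix that pairs with an E protein but lack the basic region that contacts DNA, so an E protein held by an ID protein does not bind its sites. ID genes are themselves well-known targets of TGF-beta and BMP signals through SMAD proteins, and Id3 is also induced by antigen receptor signals through ERK and the EGR factors. A cell's E protein activity is thus set by the levels of both families, and much of it at the protein level, which arrays do not measure.

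The stretches just upstream of the ID genes are shown because these genes respond to SMAD proteins and because the product of Mbd4 binds CpG sites. RefSeq windows on build GRCm38.p6 were found for 5 of the 7 members. The 250 bases before the start of Id3 (chr4:136143572-136143821, plus strand), Id2 (chr12:25096093-25096342, minus strand) and Id4 (chr13:48260866-48261115, plus strand) read as follows, 5′ to 3′. Capitals mark E-boxes (CANNTG), the BMP-response core GGCGCC and the SMAD core GTCT, the last searched on both strands and so also as AGAC.
Id3: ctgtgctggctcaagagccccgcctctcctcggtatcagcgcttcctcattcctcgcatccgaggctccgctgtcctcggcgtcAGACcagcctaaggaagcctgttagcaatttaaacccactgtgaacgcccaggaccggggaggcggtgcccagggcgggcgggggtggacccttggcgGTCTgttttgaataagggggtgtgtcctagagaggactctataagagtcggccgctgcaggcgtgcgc
Id2: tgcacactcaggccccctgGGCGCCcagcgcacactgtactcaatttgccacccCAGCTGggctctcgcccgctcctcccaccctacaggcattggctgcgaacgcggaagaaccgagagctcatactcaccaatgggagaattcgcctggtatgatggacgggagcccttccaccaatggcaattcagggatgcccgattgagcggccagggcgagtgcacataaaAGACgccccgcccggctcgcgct
Id4: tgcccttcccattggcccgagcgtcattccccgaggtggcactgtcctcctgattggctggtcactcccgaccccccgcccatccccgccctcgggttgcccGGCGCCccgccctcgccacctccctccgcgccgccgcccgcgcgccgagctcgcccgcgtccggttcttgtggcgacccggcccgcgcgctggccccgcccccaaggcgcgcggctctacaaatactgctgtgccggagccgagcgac
In these letters Id3 had 2 SMAD cores, Id2 had 1 of each motif, and Id4 had 1 GGCGCC core. Among all 32851 RefSeq windows cut the same way, 66.2% held an E-box, 82.9% a SMAD core and 9.59% the GGCGCC core. Id3 and Id2 each had 18 CpG sites in the 250 bases, a number that 21.7% of windows reached, and Id4 had 35, which 2.97% reached. None of the 3 held the exact EGR sequence GCGGGGGCG on either strand, which 2.57% of windows held. No other spelling of an EGR site was searched, so such a site could be present. The 3 windows are those of a gene that was lower in Mbd4 KO cells and of others that were not called. No binding or methylation was measured, and the matches describe letters only.

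Values are deposited by the authors as log2 RMA levels, where RMA corrects background, equalises the arrays and combines the probes of a cluster. On this scale a difference of 1 is a doubling. The median of all values on an array lay between 6.944 and 6.978. Mbd4 itself was 8.74 and 8.77 in control and 6.47 and 6.49 in Mbd4 KO arrays, so the arrays rank as labelled, although it was not checked whether its probes lie in the deleted part. The cells carried B cell markers on all arrays. Of 9 B cell markers measured, limma called none, where 1.39% of all clusters were called. An unadjusted p under 0.05 was reached by 3, beside 14% of all genes. These 3 were higher in Mbd4 KO arrays, Cd22 by 0.44, Cd37 by 0.34 and Blk by 0.31. The median level was 10.37 to 10.51 in control and 10.83 to 10.92 in Mbd4 KO arrays. The median of the 9 differences was 0.042, and 3 of them were below 0. Cd79b read 11.86 to 11.89 and the brightest cluster of Ighm 7.42 to 7.57. The 3 clusters of Ighm differed by -0.084 to 0.38. The 6 T cell, 8 myeloid and 7 fibroblast markers had median levels between 5.9 and 7.0 on every array. Differences were above 0 in 3 of the 6 T cell, 5 of the 8 myeloid and 4 of the 7 fibroblast markers. Their medians were 0.0047, 0.06 and 0.025. Among them the macrophage gene Adgre1 fell by 1.06 (SE 0.070, limma adjusted p = 0.00311), and Lyz2 differed by 0.24 (0.295). Lyz2, Cd14 and Cd3d lay between 4.96 and 5.69. Others read above the array medians, with Col1a1 at 7.49 to 7.65 and Csf1r at 7.24 to 7.42. Pdgfrb differed by -0.52 (limma adjusted p = 0.0783), Cd3g by 0.42 (0.254) and Pdgfra by 0.21 (0.439). Cd28, listed as a T cell marker, was bright on all arrays, at 11.08 to 11.35. The part of any of these markers in the results below was not tested.

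Id3 was lower in Mbd4 KO cells than in control cells, and the other ID genes were not called. Id3, which encodes an ID protein known for restraining E proteins in lymphocytes, was 9.38 and 9.34 on the control arrays and 8.53 and 8.62 on the Mbd4 KO arrays. Both Mbd4 KO arrays lay well below both control arrays, and the gap between groups was wider than the gaps of 0.043 and 0.091 within them. Since Id3 was picked for its fall, this separation adds no support. The group means were 9.36 ± 0.031 and 8.58 ± 0.064 (log2, SD, n = 2 each). Mbd4 KO minus control was -0.78 ± 0.071 (log2, SE), with a 95% interval of -0.96 to -0.61, and the control level was 1.72 times the Mbd4 KO level. In RNA from whole cultures, fewer cells with Id3 RNA and less of it per cell cannot be told apart. Limma, fitted to all 21789 clusters with Benjamini-Hochberg adjustment, gave Id3 an adjusted p of 0.00903, which is its place in the fit and no support, since the gene was picked for this fall. With any 1 array left out the adjusted p was 0.0586 to 0.0854, and with all 35556 clusters of the table in the fit it was 0.112, so the call ended although the difference stayed between -0.83 and -0.74.

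**Figure D1:**
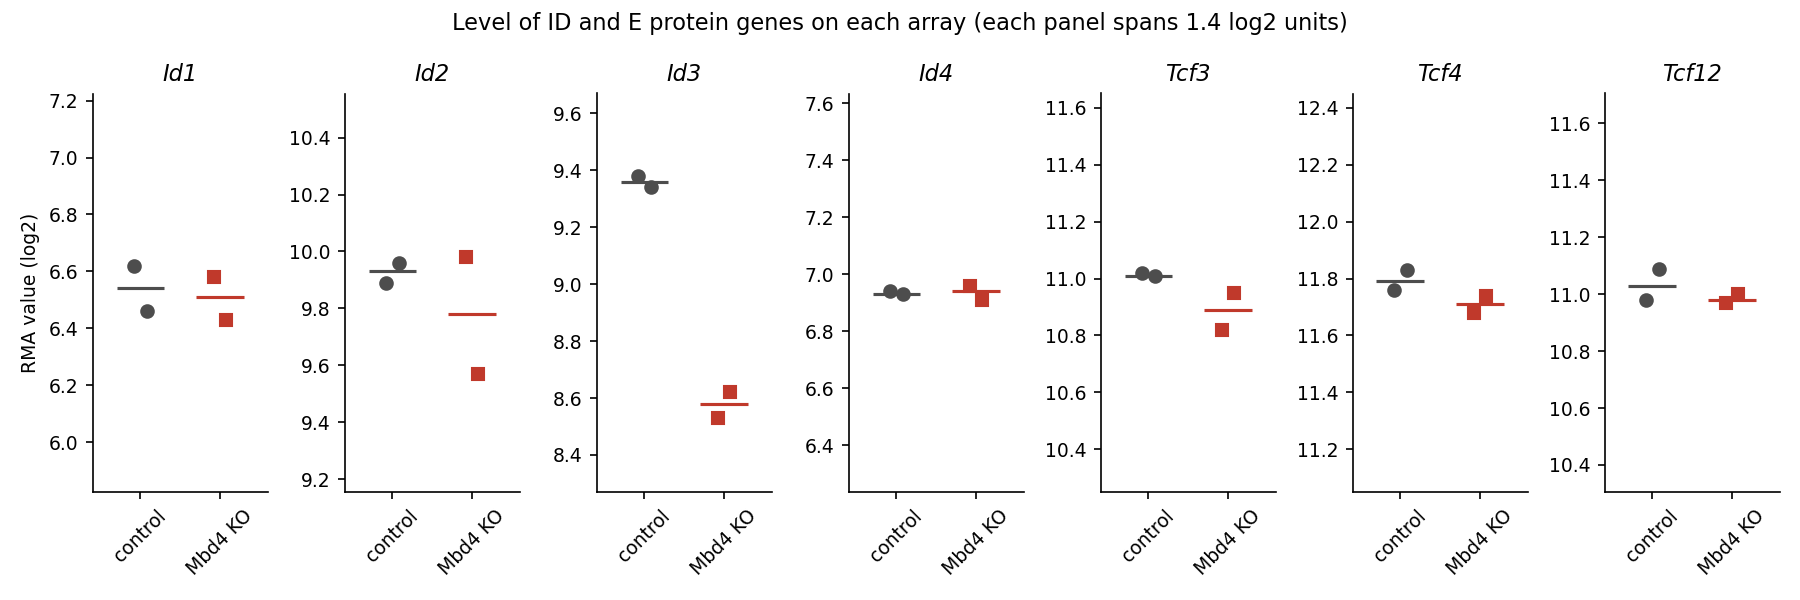
Log2 RMA level of each member (vertical axes, each spanning the same width) on the 2 control arrays (grey circles) and the 2 Mbd4 KO arrays (red squares), with bars at the group means. Id3 drops from 9.36 to 8.58 with no overlap, whereas the Mbd4 KO arrays of Id2 lie on both sides of the control arrays.

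Id2, the ID gene known from lymphoid lineage choices and itself a target of TGF-beta, was 9.89 and 9.96 in control arrays and 9.98 and 9.57 in Mbd4 KO arrays. The first Mbd4 KO array was above both controls and the second below both, a gap of 0.41 within 1 group. The difference was -0.15 ± 0.14 (log2, SE; 95% interval -0.48 to 0.18; limma adjusted p = 0.688). Without the second Mbd4 KO array it was 0.053 and without the first it was -0.35, so its sign rests on single arrays. The interval still covers a fall of up to 0.48, so a change of Id2 smaller than that of Id3 could go unseen here.

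Id1, a classic target of BMP signals, was 6.62 and 6.46 in control and 6.58 and 6.43 in Mbd4 KO arrays, all under the medians of the arrays. The groups overlapped, and the difference was -0.034 ± 0.092 (95% interval -0.26 to 0.19; limma adjusted p = 0.914). Id4, the family member best known from neural and mammary cells, was 6.94 and 6.93 in control and 6.96 and 6.91 in Mbd4 KO arrays. Its difference was 0.0042 ± 0.066 (95% interval -0.16 to 0.17; adjusted p = 0.987), with the groups overlapping. Both genes gave values near or below the array median, and without raw intensities it cannot be said whether their clusters were above background, so a change in either could also go unseen. The sign of the small Id1 and Id4 differences turned under some of the alternatives.

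The E protein genes moved little. Tcf3, whose products are the best-studied E proteins of early B cells, was 11.02 and 11.01 in control and 10.82 and 10.95 in Mbd4 KO arrays. Both Mbd4 KO arrays lay below both controls, and the difference was -0.13 ± 0.075 (log2, SE; 95% interval -0.31 to 0.056; limma adjusted p = 0.523). Tcf4, the E protein gene known for plasmacytoid dendritic cells and also active in germinal centre B cells, was 11.76 and 11.83 in control and 11.68 and 11.74 in Mbd4 KO arrays. The groups again did not overlap, by a narrow margin, and the difference was -0.086 ± 0.070 (95% interval -0.26 to 0.085; adjusted p = 0.655). Tcf12, whose product pairs with the other E proteins in thymocytes, was 10.98 and 11.09 in control and 10.97 and 11.00 in Mbd4 KO arrays. These overlapped, and the difference was -0.051 ± 0.073 (95% interval -0.23 to 0.13; adjusted p = 0.815). The 3 E protein clusters read above 10.8 on every array.

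**Figure D2:**
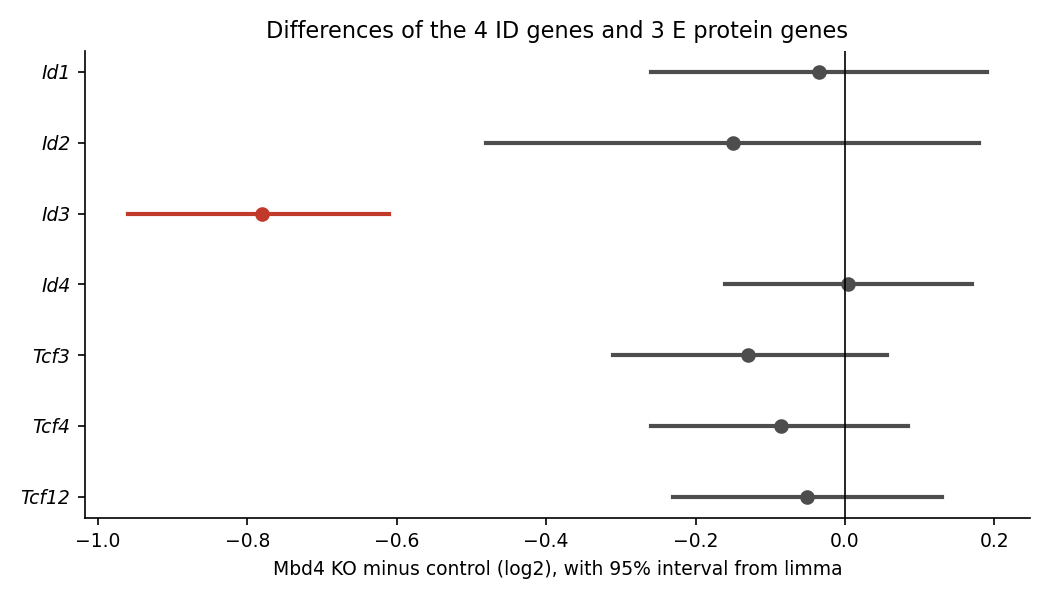
Mbd4 KO minus control (log2, horizontal axis) for each member, with the 95% interval from limma, Id3 in red. The interval of Id3 ends at -0.61, and those of the other 6 members cross 0.

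Of the 7 members, 1 was called lower (Id3) and 0 higher by limma, where 0.955% of all clusters were called lower, 0.431% higher and 1.39% either way. Since Id3 was in the set for its fall, nothing is read from that count. In 3 members (Id3, Tcf3 and Tcf4) both Mbd4 KO arrays lay below both control arrays, as they did in 18.3% of all clusters. The median difference was -0.086 over the 7 members and -0.068 over the 6 without Id3, beside 0.021 over all clusters. Differences of the 6 others ran from -0.15 to 0.0042, within the -0.23 to 0.23 that holds the middle of all clusters between the 5th and 95th percentiles. An exact permutation of 2 arrays against 2 cannot give a two-sided p below 0.333 for any of these genes.

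Set side by side, the fall of Id3 exceeded that of each other member by 0.63 (Id2) to 0.79 (Id4) on the log2 scale, and that of the E protein genes by 0.65 (Tcf3), 0.70 (Tcf4) and 0.73 (Tcf12). The interval of Id3 does not reach that of any other member, the nearest bound being -0.48 for Id2. Because Id3 was chosen for its difference, these gaps are a description with no test. They do not say that the E protein genes stayed the same. In the whole table Id3 was the 77th lowest of 21789 differences, and 76 of those 77 clusters were called. Levels of different genes are not ranked, since each cluster has its own probes.

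**Figure D3:**
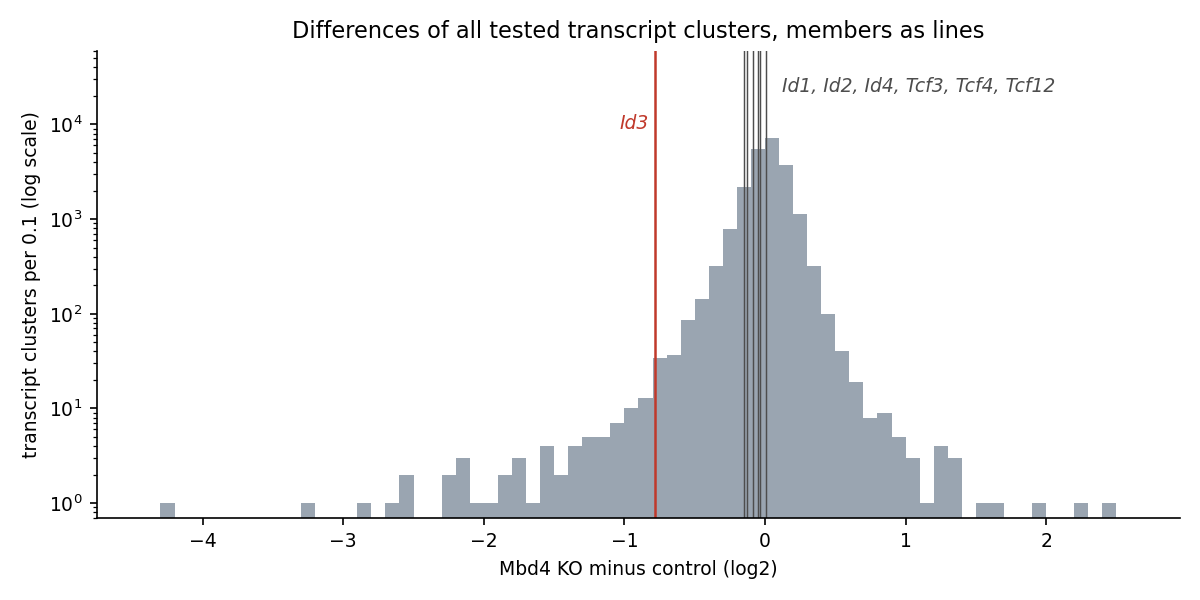
Number of transcript clusters (vertical axis, log scale) by Mbd4 KO minus control difference (log2, horizontal axis, bins of 0.1), with a line at each member. Id3 (red, -0.78) lies in the lower tail, and the other 6 members (grey) lie between -0.15 and 0.0042 in the bulk.

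The genes of chromosome 16 had a median difference of -0.11 (648 genes), so the genes beside each member were looked at for such regional shifts. No member lies on chromosome 16. Id3 lies on chromosome 4. The 10 measured protein-coding genes on each side had a median difference of 0.031, and none of these 20 was as low as Id3, the lowest being -0.12. Only 0.353% of all clusters were as low as Id3, which was chosen for its fall, so nothing is read from that. Eloa, which encodes a subunit of an RNA polymerase elongation factor, and E2f2, a cell cycle transcription factor gene, flank Id3 and differed by 0.020 and 0.046. The highest neighbour was the interferon lambda receptor gene Ifnlr1, at 0.61 (limma adjusted p = 0.086). Id2, on chromosome 12, lay among genes with a median of -0.035, of which 14 of 20 were below 0, beside 42.1% of all genes. With 20 genes on each side the median was -0.051, and 28 of 40 were below 0. The 652 measured genes of chromosome 12 had a median of -0.017, beside 0.023 over all genes. The part of this in the Id2 difference was not tested. The nearest to Id2 on each side, Kidins220 and Rnf144a, differed by -0.087 and 0.19. Rrm2, the ribonucleotide reductase gene that is also close by, differed by -0.33 (adjusted p = 0.0954).

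The neighbours of the remaining members had medians between 0.034 (Id4) and 0.059 (Tcf12). Next to Id1 on chromosome 2 lie Mcts2 (0.10) and Cox4i2 (0.082), next to Id4 on chromosome 13 Rnf144b (0.14) and Zfp169 (0.17). Next to Tcf3 on chromosome 10 are Uqcr11 (0.12) and Onecut3 (-0.13), next to Tcf4 on chromosome 18 Mc2r (0.00063) and Ccdc68 (0.22), and next to Tcf12 on chromosome 9 Cgnl1 (0.13) and Zfp280d (0.11). Of the 140 neighbours, limma called 0 after adjustment, where 0.451% of all genes were called higher and 0.923% lower. At shares this low, 0 calls says little. An unadjusted p under 0.05 was reached by 11 of the 140, beside 14% of all genes.

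**Figure D4:**
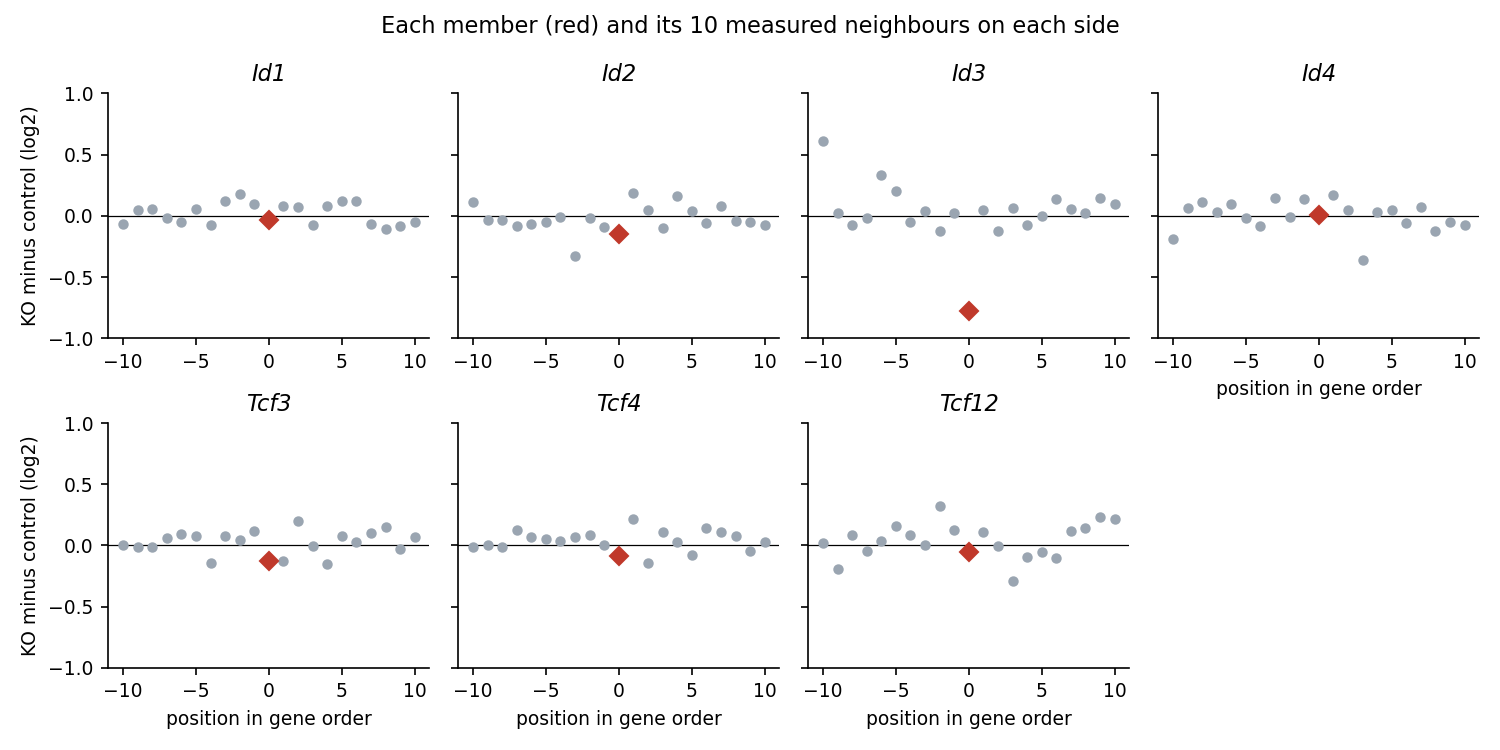
Mbd4 KO minus control (log2, vertical axis) of each member (red diamond) and its 10 measured protein-coding neighbours on each side (grey), by position in gene order (horizontal axis). Only in the Id3 panel does the member lie below all its 20 neighbours, at -0.78 against a lowest neighbour of -0.12. Id3 was chosen for its fall, and only 0.353% of all clusters were as low, so the contrast between panels is a description.

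The genes that E proteins act on in lymphocytes were a list of 32 drawn from general knowledge, with 29 measured, of which 2 fell and 1 rose. Vpreb3, of the surrogate light chain family, was 10.69 and 10.65 in control and 9.82 and 9.94 in Mbd4 KO arrays, a fall by 0.79 (log2; SE 0.074; limma adjusted p = 0.0101). Il7r, the IL-7 receptor chain gene of early lymphocytes, was 7.38 and 7.40 against 6.70 and 6.74, a fall by 0.67 (SE 0.067; adjusted p = 0.0132). Lef1, a transcription factor gene of the Wnt pathway that is active in early B and T cells, went the other way, from 8.14 and 8.16 to 8.89 and 8.78, a rise of 0.69 ± 0.073 (adjusted p = 0.0154). In each of the 3 the gap between groups was wider than the gaps within them, which the call itself largely requires and which adds no support.

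The count was 1 higher and 2 lower of 29, where 0.451% of all genes were called higher and 0.923% lower. An unadjusted p under 0.05 was reached by 9 of the 29, beside 14% of all genes. The median was -0.028, beside 0.023 over all genes, with 17 of the 29 below 0, as were 42.1% of all genes. Vpreb3 and Il7r were already known to be lower when the list was drawn up, so the list is no independent evidence. All 3 calls ended with any 1 array left out (adjusted p 0.0584 to 0.0867 for Vpreb3, 0.0913 to 0.11 for Il7r and 0.0747 to 0.113 for Lef1) and in the fit to all clusters (0.121, 0.127 and 0.142).

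The other measured genes of the list were not called. Ebf1, which specifies the B lineage, differed by -0.11, Pax5, which maintains it, by 0.042, and Foxo1 by 0.16. The signalling chain gene Cd79a differed by -0.17 and Cd79b by 0.012. Blnk, an adaptor gene of B cell receptor signalling, differed by -0.28 (limma adjusted p = 0.15) and Spib, an ETS factor gene of B cells, by -0.22 (0.236), and both were called with an intensity trend in the prior (0.00325 and 0.00503). Genes of antigen receptor rearrangement were low throughout, Rag1 at 5.55 to 5.88 and Rag2 at 3.95 to 4.40, and Igll1 and Vpreb1, the other surrogate light chain genes, differed by 0.34 (adjusted p = 0.101) and 0.31 (0.383), in the direction opposite to Vpreb3. Igll1 and Vpreb1 lie on chromosome 16 and Vpreb3 on chromosome 10. Gfi1, a repressor gene of lymphoid and myeloid cells, differed by 0.38 (adjusted p = 0.159), and its relative Gfi1b by -0.34 (adjusted p = 0.0981).

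Upstream of the ID genes, limma called 0 of the 34 TGF-beta and BMP pathway genes. Over all genes 0.451% were called higher and 0.923% lower, so 0 calls in a list this short says little. An unadjusted p under 0.05 was reached by 6 of the 34, beside 14% of all genes. The median was 0.031, beside 0.023 over all genes. Smad3, which carries the TGF-beta signal, was 7.77 and 7.85 in control and 8.26 and 8.20 in Mbd4 KO arrays, a difference of 0.42 ± 0.072 (adjusted p = 0.065). Grem1, a secreted BMP antagonist gene, differed by 0.37, the ligand gene Tgfb2 by 0.36, and Smad1, which carries the BMP signal, by 0.29 (adjusted p = 0.187, 0.447 and 0.234). The values of Tgfb2 were low, at 5.35 to 6.10, and its groups overlapped. Of the 34 genes, 16 had a mean level below the median of all clusters. The receptor genes Tgfbr1 and Tgfbr2 differed by -0.17 and -0.017. Smad7, an inhibitory SMAD that the pathway itself induces, differed by -0.21 (adjusted p = 0.486).

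Of 17 measured genes of the ERK and EGR route to Id3, limma called 0, where 0.451% of all genes were called higher and 0.923% lower. In a list this short 0 calls says little. An unadjusted p under 0.05 was reached by 5 of the 17, beside 14% of all genes. The median was -0.018. Egr1, a factor known to induce Id3, was 7.50 and 7.42 in control and 7.69 and 7.64 in Mbd4 KO arrays, a difference of 0.21 ± 0.070 (limma adjusted p = 0.275). The phosphatase genes Dusp6 and Dusp4, which ERK signalling induces, differed by -0.51 (adjusted p = 0.118) and -0.34 (0.219). Elk3, an ETS factor gene, differed by -0.24 (adjusted p = 0.214). Spry2, another feedback inhibitor gene of the route, differed by 0.55 (adjusted p = 0.359), on arrays that read 4.80 and 4.69 in control and 5.65 and 4.92 in Mbd4 KO cells. Its values are low and the Mbd4 KO arrays lie far apart.

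Other helix-loop-helix genes, 39 measured of 40, gave 0 calls by limma, where 0.451% of all genes were called higher and 0.923% lower. In a list this short 0 calls says little. An unadjusted p under 0.05 was reached by 5 of the 39, beside 14% of all genes, and the list's median difference was 0.027. The largest difference was in Mitf, a factor gene of the basic helix-loop-helix zipper type that does not pair with E proteins, at 0.53 (adjusted p = 0.0739). Its second cluster differed by 0.070. Bhlhe40, a repressor gene induced by activation, differed by -0.32 (adjusted p = 0.193), Neurod1, a neural partner of the E proteins, by 0.31 (0.342) and Hes6 by -0.29 (0.297). The values of Neurod1 were low, at 5.10 to 5.65. In this list 23 of the 39 genes had a mean level below the median of all clusters. The E protein partner genes of blood cells, Lyl1 and Tal1, differed by 0.012 and 0.14, and Msc, whose human counterpart was found in activated B cells, by 0.018.

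Cofactors and turnover genes of E and ID proteins, 24 measured of 25, also gave 0 calls. Over all genes 0.451% were called higher and 0.923% lower, so this too says little. An unadjusted p under 0.05 was reached by 5 of the 24, beside 14% of all genes, and the list's median difference was 0.014. Usp1, the deubiquitinase that stabilises ID proteins, differed by 0.029 and its partner Wdr48 by -0.051. The coactivator gene Ep300 differed by 0.044 and its relative Crebbp, on chromosome 16, by -0.26 (limma adjusted p = 0.2). Ets2, also on chromosome 16, differed by -0.35 (adjusted p = 0.106), Ets1 by 0.25 (0.198) and Notch2, a receptor whose signals affect E protein turnover, by 0.34 (0.101). Without chromosomes 16 and 8 the median of this list was 0.035.

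**Figure D5:**
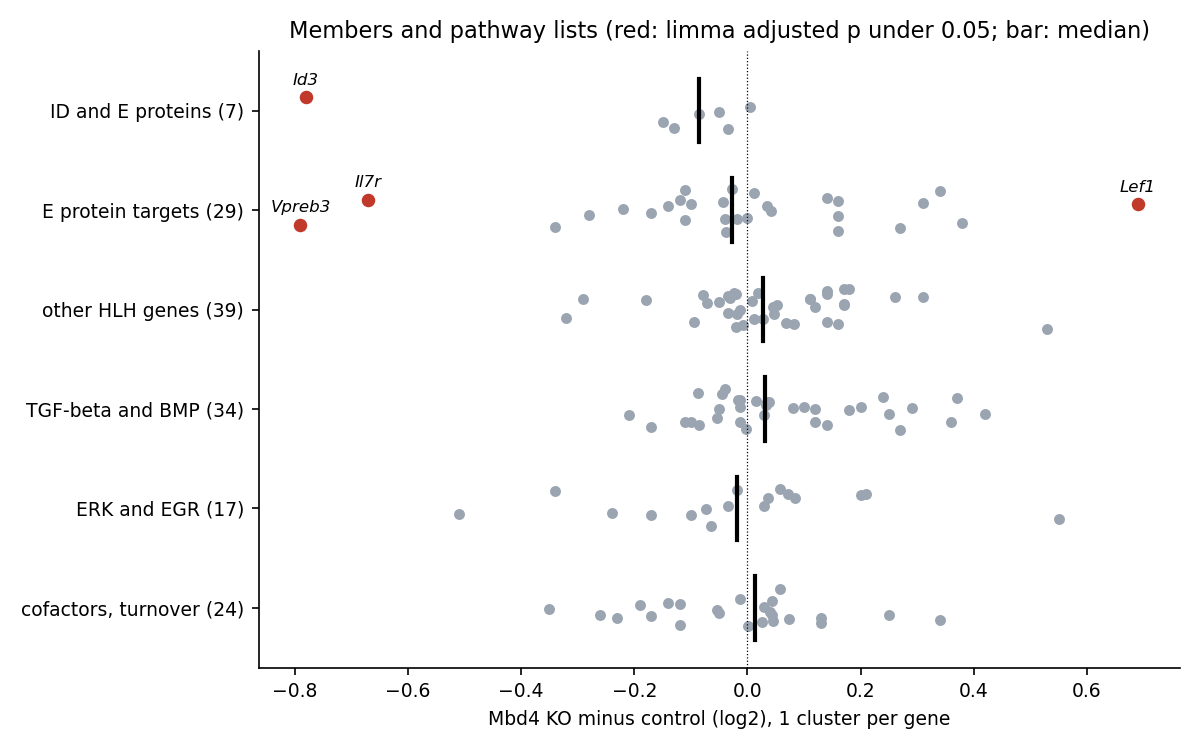
Mbd4 KO minus control (log2, horizontal axis) of the 7 members and of the measured genes in 5 lists, 1 point per gene, with calls by limma in red and a bar at each median. The calls are Id3, Vpreb3 (-0.79), Il7r (-0.67) and Lef1 (0.69), and the other lists hold none. Over all genes 0.451% were called higher and 0.923% lower.

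The genes whose pattern over the 4 arrays was most like that of Id3 were found by the root mean square distance of values centred on each gene's control mean. Vpreb3 was the closest of all clusters, at a distance of 0.012 (log2). After it came Ctsw, a cathepsin gene of cytotoxic lymphocytes (0.017), Cox17, a copper chaperone gene of the respiratory chain (0.022), Tigit, an inhibitory receptor gene (0.026), and Serinc5, a membrane protein gene (0.032). They fell by 0.79, 0.79, 0.75, 0.79 and 0.74 in turn, and Cox17 and Tigit lie on chromosome 16. With only 4 arrays a small distance says little more than that the differences are of like size. By correlation over the arrays in place of distance, 2 of the 5 genes, Vpreb3 and Cox17, were again among the top 5, and 148 of 1657 variable clusters had r above 0.99.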

How the data were processed

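The authors deposited log2 values made with RMA, per the submitters' processing notes, 1 per transcript cluster and array. Its version and settings are not stated, and raw intensities were not used. Arrays were grouped by title. The platform's gene table paired 21789 of 35556 clusters with exactly 1 symbol, and only these were tested. Mbd4 KO was set against control in R 4.3.3 by limma 3.58.1 (lmFit, eBayes), two-sided and unfiltered, and adjusted p-values (Benjamini-Hochberg, every tested cluster) under 0.05 were called. The fit had 2 residual and 4 prior degrees of freedom. The fit was tested on simulated data with 200 changed clusters among 21789. It called 33% of the clusters changed by 0.5 and 95% of those changed by 1 (log2), and 10 unchanged clusters. The simulated variances were drawn from the fit's own prior, with independent noise and no link to intensity. These rates therefore describe the model and may not hold for the arrays. For lists, each gene is its cluster with the highest mean.

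Members and lists were chosen with earlier results of these data known. Named are all members, in each list the called genes and the 4 largest differences, nearest neighbours of members, the 5 genes most like Id3, and Mbd4. Other genes named as known parts of a pathway or as cell type markers, Rrm2 and Ifnlr1 were picked after their values were seen. List genes without a single-symbol cluster were not analysed here. Gene order and sequences came from RefSeq on GRCm38.p6, used for names, order and promoter windows only, since no source names the array's build. Alternatives were a replicate block, each array left out, an intensity trend or robust prior, quantile or cyclic loess normalization, leaving out the dimmest 30%, fitting all clusters, other cluster, neighbour, likeness and window choices and, chosen after seeing the data, leaving out chromosomes 16 and 8. Figures were drawn with matplotlib 3.10.9.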

Additional observations from a re-analysis of the deposited data

How the results depend on the processing

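The direction of the Id3 difference held in all 12 alternative fits, from -0.83 to -0.74. Its call, and with it the count of called members (1 to 0), ended with any 1 array left out and with all clusters fitted (-0.78, adjusted p = 0.112). It held in the 7 other fits. No other member was called in any fit. Signs turned for 4 of the 6 others. With 1 array left out Id1 ran from -0.12 to 0.047, Id2 from -0.35 to 0.053, Id4 from -0.020 to 0.028 and Tcf12 from -0.11 to 0.0061. The positive values came without control array 1 (0.047) or Mbd4 KO array 2 (0.044) for Id1, without Mbd4 KO array 2 for Id2 and without control array 2 for Tcf12. Id4 was -0.0012 without control array 2, -0.020 without Mbd4 KO array 1, -0.0050 with quantile and -0.020 with cyclic loess normalization. Of 302 clusters called, leaving out 1 array left 65 to 75, a replicate block 159, an intensity trend gave 1121, removal of the dimmest 30% gave 640, all clusters 22, and leaving out chromosomes 16 and 8 left 175.

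Among E protein targets, leaving out 1 array or fitting all clusters gave 0 higher and 0 lower. An intensity trend gave 5 lower (adding Blnk, Gfi1b and Spib) and removal of dim clusters 2 higher (adding Igll1) and 3 lower (adding Gfi1b). With an intensity trend the other helix-loop-helix genes gave 1 higher and 1 lower, the TGF-beta and BMP genes 2 higher (Ski and Smad3), the ERK and EGR genes 2 lower (Dusp6 and Elk3) and the cofactors 1 higher and 2 lower. Without dim clusters these lists gave 1 higher, 1 higher, none, and 1 higher with 1 lower. The median of 4 lists moved beyond its spread between arrays under some alternative, namely of the TGF-beta and BMP genes (0.023 without dim clusters, 0.019 with quantile, 0.0093 with cyclic loess normalization, 0.021 to 0.042 with 1 array left out), the cofactors (0.035 without chromosomes 16 and 8, -0.027 to 0.013 with 1 array left out), the other helix-loop-helix genes (-0.007 to 0.085 with 1 array left out, the highest without Mbd4 KO array 2) and the ERK and EGR genes (-0.03 to 0.028, the highest without control array 1). The cause of these shifts was not tested. The medians of neighbours moved for Id1 (0.082 with 5 on each side) and Tcf12 (0.019 with 20).

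The labels number the arrays 1 and 2 in both groups, but same-numbered arrays hardly deviate together (r = 0.083 across 21789 clusters, which are not independent), so the numbers were not taken as pairs. With the replicate block the Id3 difference was -0.78 (limma adjusted p = 0.0281), the call of no member changed, and the calls of Vpreb3, Il7r and Lef1 held. The number of arrays limits the precision, and signal over background could not be assessed.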
